A study of Homo sapiens with 32 samples.

Results

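The lysosomal enzymes and membrane proteins described here are 34 genes of the 23073 in the deposited expression table, taken by gene symbol from a fixed list. They comprise 6 genes of the lysosomal membrane or its transport proteins (LAMP1, LAMP2, CD63, CD68, SCARB2 and NPC1), 10 proteases, 8 genes of lipid breakdown, 9 of glycan breakdown and GRN, the precursor of the granulins. Their symbols matched 44 rows, of which the additional rows for NEU1, CTSO, GLA and IDS lie off the primary chromosomes and stand at 0 in every library. Of the 34 members, 33 passed the filter of at least 1 FPKM (fragments scaled by transcript length and library size) in at least 2 libraries. LGMN, the asparaginyl endopeptidase of the lysosome, did not pass, with 0 to 0.793 FPKM and a value of 0 in 10 libraries.

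RNA was sequenced from 32 cultures of the human acute myeloid leukaemia lines Kasumi-1 and SKNO-1, established lines that carry the RUNX1-RUNX1T1 fusion. The inhibitor groups received RN-1, an irreversible inhibitor of the histone demethylase KDM1A, or GSK690, a reversible one, each at 1 µM. The control groups received DMSO at 0.1% or 1 µM GSK690*, the isomer of GSK690 that is labelled inactive. Each agent was tested at 24 and 72 h with 2 replicates per group, which the series' design calls biological, so each set of line and time has 4 inhibitor and 4 control libraries. Kasumi-1 was cultured with 20% serum, and SKNO-1 with 10% serum and 10 ng/mL GM-CSF. For the later SKNO-1 cultures the treatment protocol gives 4 days, and their titles 72 h. All libraries of 24 h carry 1 prefix in their names and those of 72 h others, so that time and name prefix cannot be told apart. In SKNO-1 at 72 h, replicate 1 of DMSO and of RN-1 carries the prefix of all Kasumi-1 libraries of 72 h, and the other libraries another. Line is thus largely tied to the prefix at 72 h. Within SKNO-1 at 72 h, RN-1 against GSK690 and GSK690* against DMSO are partly tied to it. The labels do not say what a prefix stands for.

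The lysosome is the acidic compartment in which cathepsins, glycosidases, lipases and sulfatases degrade material taken up by endocytosis, phagocytosis and autophagy, and it is abundant in monocytes and macrophages. Many of its genes carry an E-box in their promoters, the core of the CLEAR element, which transcription factors of the TFEB and TFE3 family bind. KDM1A removes methyl groups from histone H3 lysine 4 and, in leukaemic blasts, acts with GFI1-containing complexes that repress myeloid genes.

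FPKM summed over genes was 332648 to 395945 per library, and 10551 to 10970 genes reached 1 FPKM. The depth in reads is unknown, since no read counts were used. The 2 replicates of a group correlated with a Pearson r of 0.986 to 0.996 across genes. The authors' sample table gives the opposite line for the 16 libraries of 72 h, and the labels' titles were followed. By title, the mean r of a 72 h library was 0.974 to 0.986 with 24 h libraries of the same line, against 0.848 to 0.870 with those of the other line. RUNX1T1 had 21.2 to 53.5 FPKM and CD33, a myeloid surface protein, 18.1 to 106 FPKM over all libraries. In bulk RNA, more cells that hold a transcript and more transcript per cell cannot be told apart.

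With the KDM1A inhibitors, a subset of the lysosomal genes rose in each set, and 6 of them rose in all 4: CTSO, SGSH, SCARB2, CTSB, MAN2B1 and FUCA1. SGSH, which was under 1 FPKM in every control library, passed the filter only through the inhibitor libraries, and it is 1 of the members counted as risen in each set. In Kasumi-1, 14 of 33 tested members rose and 1 fell at 24 h, where 9.69% of all tested genes rose and 11.2% fell. At 72 h, 12 members rose in Kasumi-1 and none fell, against 13% and 12.7% of all genes. In SKNO-1, 8 members rose and none fell at 24 h, against 5.64% and 3.44% of all genes. At 72 h, 8 members rose and 1 fell in SKNO-1, against 6.91% and 4.16% of all genes. The test was limma on log2(FPKM + 1), with the mean of both inhibitors set against the mean of both controls and p adjusted by Benjamini and Hochberg over all tested genes at a threshold of 0.05. Where no member fell, 2 in Kasumi-1 at 72 h and 3 in SKNO-1 at 24 h were lower at an unadjusted p under 0.05.

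In Kasumi-1 the 33 members had a median log2 change of 0.24 at 24 h and 0.20 at 72 h, and in SKNO-1 0.06 and 0.02, while the median over all tested genes was -0.01 in Kasumi-1 at 24 h and -0.02 in each of the other 3 sets. Summed over the 34 members, the share of a library's FPKM was 0.584% ± 0.0045 with the inhibitors and 0.519% ± 0.013 in controls of Kasumi-1 at 24 h (SD, n = 4 each). It was 0.663% ± 0.017 against 0.581% ± 0.0091 in Kasumi-1 at 72 h. In SKNO-1 it was 0.501% ± 0.016 with the inhibitors against 0.477% ± 0.017 in controls at 24 h, and 0.573% ± 0.015 against 0.538% ± 0.009 at 72 h. The inhibitor and control shares overlapped in SKNO-1 at 24 h and were separate in the other 3 sets. Of the 33 members, all 4 inhibitor libraries lay above all 4 controls for 16 in Kasumi-1 at 24 h and for 13 at 72 h, where 14.4% and 15.6% of all genes did. In SKNO-1 this held for 6 members at 24 h and 7 at 72 h, against 6.8% and 8.57% of all genes.

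In Kasumi-1 at 24 h, 9 members rose when DMSO replicate 2 or GSK690 replicate 2 was left out, and the fall of CTSC was lost without 6 of the 8 libraries, named with that gene. In SKNO-1 at 24 h, all 8 members that rose had higher values in replicate 1 than in replicate 2 of every group, controls included. There, 2 members rose when RN-1 replicate 1 or GSK690* replicate 2 was left out, 4 without GSK690 replicate 1 and 5 without DMSO replicate 2, and none rose in a fit to the 8 libraries of that set alone. Members that fell numbered 1 without RN-1 replicate 2 and 2 without GSK690 replicate 2. In SKNO-1 at 72 h, 4 members rose and none fell in the fit to that set's 8 libraries, and 2 fell when either GSK690* replicate was left out. Without the filter on low values, the calls of FUCA1, GRN, NEU1 and NPC1 in Kasumi-1 at 24 h, ARSA in Kasumi-1 at 72 h, CTSB and SCARB2 in SKNO-1 at 24 h and CTSB in SKNO-1 at 72 h were lost (adjusted p 0.0551 to 0.077, limma). With a pseudocount of 0.1 those of FUCA1 and NEU1 in Kasumi-1 at 24 h and ARSA in Kasumi-1 at 72 h were lost (adjusted p 0.0515 to 0.0923), and that of NPC1 with quantile normalization (adjusted p = 0.0534). Conversely, quantile normalization called NPC2 and CTSZ in both SKNO-1 sets and GRN in Kasumi-1 at 72 h (adjusted p 0.00841 to 0.0366), and median-of-ratios scaling called NPC2 and CTSZ in SKNO-1 at 24 h and GRN in Kasumi-1 at 72 h (adjusted p 0.0298 to 0.0414). The fit to a set's 8 libraries called ARSA in Kasumi-1 at 24 h and CTSH and GRN in Kasumi-1 at 72 h (adjusted p 0.0334 to 0.045), and a pseudocount of 0.1 called CTSH there (adjusted p = 0.0361). All of these were higher with the inhibitors. Whichever single library was left out, 8 of 15 calls held in Kasumi-1 at 24 h, 10 of 12 in Kasumi-1 at 72 h, 2 of 8 in SKNO-1 at 24 h and 8 of 9 in SKNO-1 at 72 h.

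Markers of monocytes and macrophages, cells rich in lysosomes, moved in the same libraries. Of 20 such markers 11 were tested, and 9, 9, 8 and 8 of them rose in the 4 sets, with median log2 changes of 1.11 and 1.36 in Kasumi-1 and 0.86 and 0.94 in SKNO-1. The remaining 2, 2, 3 and 3 of the 11 did not pass in limma. In SKNO-1 at 72 h, 1 of the 11 was lower at an unadjusted p under 0.05. The markers named below with a change are among those that rose. Of all tested genes 9.69% and 13% rose in Kasumi-1 and 5.64% and 6.91% in SKNO-1. The summed level of the 20 markers was 173 to 227 FPKM with the inhibitors against 42.4 to 69.3 FPKM in controls of Kasumi-1 at 24 h, and 116 to 162 FPKM against 40.6 to 53.4 FPKM at 72 h. In SKNO-1 it was 131 to 197 FPKM against 51.1 to 79.0 FPKM at 24 h and 172 to 221 FPKM against 59.0 to 83.4 FPKM at 72 h. The other 9 markers, among them CD14, FCGR3A, CD163, MSR1, VCAN, FCN1, CX3CR1 and CCR2, were under 1 FPKM in every library, and no marker stood at 0 in all of them. LY96, the partner of TLR4, rose by 2.996, 3.398, 2.23 and 2.49. LYZ, lysozyme, rose by 3.01 and 2.48 in Kasumi-1. CD86 rose by 1.73 and 1.998 in SKNO-1 and by 2.25 in Kasumi-1 at 24 h. MS4A4A rose by 2.45, 2.19 and 2.53 in Kasumi-1 at 72 h and the SKNO-1 sets. The marker list was chosen with earlier results of these data known, so its counts describe these libraries and are not a test. The part of the markers in the changes of the lysosomal genes was not tested.

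**Figure D1:**
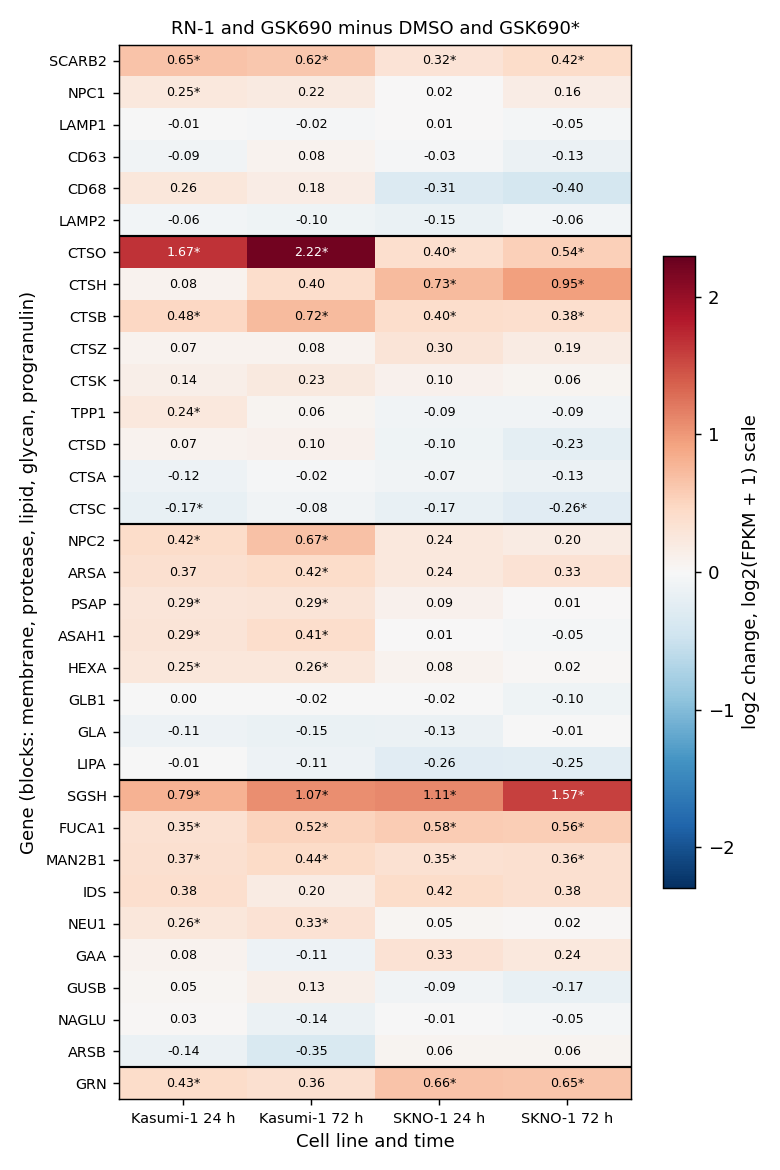
Log2 change of each tested lysosomal gene, mean of RN-1 and GSK690 minus mean of DMSO and GSK690* on the log2(FPKM + 1) scale, with genes in rows grouped by role and the 4 sets of line and time in columns; an asterisk marks an adjusted p under 0.05 in limma. CTSO in Kasumi-1 has the strongest colour, at 1.67 and 2.22, SGSH stands between 0.79 and 1.57 in all 4 columns, and LAMP1 stays between -0.05 and 0.01.

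Promoter sequence was available for 23 of the 34 members in RefSeq's table for GRCh38.p14, as the 250 bases before each gene start. The letters CACGTG, the core of the CLEAR element and the same on both strands, were found for 7 of these 23 members (30.4%), against 7.73% of 27305 genes with a window. A gene with several starts has several windows, and a match in any of them counted. CD63 and ARSB, for example, also have windows without a match. The longer forms TCACGTG or CACGTGA, which contain the core, were found for 6 members (26.1%) and 4.02% of genes. Among the members with a window, 1 of the 9 that rose in at least 1 set held the core (NEU1), and 6 of the 14 that rose in no set did (ARSB, CTSD, CD63, LAMP1, GAA and CTSA). Without a window were CTSO, SGSH and CTSB, which rose in all 4 sets, and PSAP, HEXA, ASAH1 and ARSA, which rose in fewer. Only exact matches before the gene start were searched, and a link of the core to the response was not tested. The window of LAMP1, with 5 matches, is shown as the member that combines the most matches with a flat response, and those of SCARB2, MAN2B1 and FUCA1 as the members with a window that rose in all 4 sets. Each is printed 5′ to 3′ on the gene's strand and ends at the base before the gene start, with CACGTG in capitals.
LAMP1: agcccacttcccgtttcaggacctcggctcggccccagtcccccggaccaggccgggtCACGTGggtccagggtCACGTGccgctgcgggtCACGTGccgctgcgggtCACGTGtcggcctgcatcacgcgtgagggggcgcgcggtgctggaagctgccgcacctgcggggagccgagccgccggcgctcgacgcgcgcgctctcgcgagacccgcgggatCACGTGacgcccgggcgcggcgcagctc
SCARB2: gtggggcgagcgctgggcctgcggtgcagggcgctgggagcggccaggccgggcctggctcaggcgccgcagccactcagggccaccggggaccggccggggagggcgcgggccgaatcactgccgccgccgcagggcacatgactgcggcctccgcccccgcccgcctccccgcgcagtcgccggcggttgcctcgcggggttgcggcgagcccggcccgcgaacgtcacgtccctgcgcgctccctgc
MAN2B1: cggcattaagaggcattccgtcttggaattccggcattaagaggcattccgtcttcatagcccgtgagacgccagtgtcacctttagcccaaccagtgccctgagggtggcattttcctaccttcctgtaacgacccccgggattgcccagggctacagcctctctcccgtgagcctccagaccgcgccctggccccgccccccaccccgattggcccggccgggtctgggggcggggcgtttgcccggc
FUCA1: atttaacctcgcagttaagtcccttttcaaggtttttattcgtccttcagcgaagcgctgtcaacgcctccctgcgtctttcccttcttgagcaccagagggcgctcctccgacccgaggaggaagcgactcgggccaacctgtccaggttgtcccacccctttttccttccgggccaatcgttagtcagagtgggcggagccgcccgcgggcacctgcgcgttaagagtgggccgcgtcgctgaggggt
The LAMP1 window is chr13:113296989-113297238 on the plus strand. The other windows are on the minus strand, chr4:76213825-76214074 for SCARB2, chr19:12666743-12666992 for MAN2B1 and chr1:23868291-23868540 for FUCA1. Counted back from -1 at the base before the gene start, the matches in LAMP1 begin at -192, -176, -159, -142 and -28, and the other 3 windows hold no match. A match is a run of letters and not a measured binding site, and none of the windows was read in these cells.

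Among the membrane proteins, SCARB2 rose in all 4 sets, NPC1 in 1, and LAMP1, LAMP2, CD63 and CD68 in none. SCARB2 (ENSG00000138760, hg19 chromosome 4, 77079889 to 77135046) encodes LIMP-2, the receptor that carries beta-glucocerebrosidase to the lysosome. SCARB2 stood in Kasumi-1 at 25.0 and 28.6 FPKM with RN-1 and 25.8 and 30.5 FPKM with GSK690, against 15 and 16.3 FPKM with DMSO and 18.7 and 18.7 FPKM with GSK690* at 24 h. At 72 h SCARB2 in Kasumi-1 had 31.1 and 39.7 FPKM with RN-1 and 37.1 and 40.9 FPKM with GSK690, against 21.1 and 23.2 FPKM with DMSO and 23.8 and 27.0 FPKM with GSK690*. Every inhibitor library was above every control at both times, and the log2 changes were 0.65 ± 0.094 and 0.62 ± 0.094 (± SE; adjusted p = 5.19e-05 and 4.7e-05, limma). SCARB2 stood in SKNO-1 at 16.0 and 14.0 FPKM with RN-1 and 19.8 and 16.2 FPKM with GSK690, against 13.2 and 12.2 FPKM with DMSO and 14.6 and 11.9 FPKM with GSK690* at 24 h. At 72 h SCARB2 in SKNO-1 had 19 and 19.4 FPKM with RN-1 and 19.3 and 19.8 FPKM with GSK690, against 14.0 and 14.6 FPKM with DMSO and 12.5 and 16.2 FPKM with GSK690*. The groups overlapped at 24 h and were separate at 72 h, with log2 changes of 0.32 ± 0.094 and 0.42 ± 0.094 (adjusted p = 0.0373 and 0.00531, limma). The call in SKNO-1 at 24 h was lost on omission of DMSO replicate 1, RN-1 replicate 1, GSK690 replicate 1, DMSO replicate 2 or GSK690* replicate 2 (adjusted p 0.0709 to 0.224), and both SKNO-1 calls in fits to the 8 libraries of a set (adjusted p = 0.144 and 0.076).

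LAMP1 (ENSG00000185896, hg19 chromosome 13, 113951555 to 113977987), a glycoprotein that coats the inner face of the lysosomal membrane and its usual marker, changed little. LAMP1 had 92.8 and 83.7 FPKM with RN-1 and 95.0 and 83.3 FPKM with GSK690, against 101 and 82.2 FPKM with DMSO and 89.0 and 85 FPKM with GSK690* in Kasumi-1 at 24 h. At 72 h LAMP1 in Kasumi-1 had 108 and 89.8 FPKM with RN-1 and 103 and 97.1 FPKM with GSK690, against 103 and 97.1 FPKM with DMSO and 103 and 101 FPKM with GSK690*. The inhibitor and control values overlapped at both times, and the log2 changes were -0.007 ± 0.084 and -0.024 ± 0.084. LAMP1 had 113 and 89.7 FPKM with RN-1 and 106 and 102 FPKM with GSK690, against 109.6 and 98.7 FPKM with DMSO and 104 and 92.8 FPKM with GSK690* in SKNO-1 at 24 h. At 72 h LAMP1 in SKNO-1 had 119 and 109 FPKM with RN-1 and 123 and 114 FPKM with GSK690, against 119 and 116 FPKM with DMSO and 135 and 112 FPKM with GSK690*. These groups also overlapped, with log2 changes of 0.014 ± 0.084 and -0.049 ± 0.084, and none of the 4 comparisons passed (adjusted p = 0.975, 0.875, 0.953 and 0.772, limma). LAMP2, its close relative in chaperone-mediated autophagy, ranged over 62.6 to 112 FPKM and had log2 changes of -0.064 and -0.10 in Kasumi-1 and -0.15 and -0.06 in SKNO-1. CD63, a tetraspanin of late endosomes, ranged over 127 to 188 FPKM and had log2 changes of -0.086, 0.077, -0.034 and -0.13 in the same order. In neither gene did any of these pass.

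CD68, a glycoprotein of macrophage lysosomes, averaged 23.3 ± 1.18 FPKM with the inhibitors and 19.5 ± 3.78 FPKM in controls of Kasumi-1 at 24 h, and 23.1 ± 8.10 FPKM with the inhibitors and 19.5 ± 2.55 FPKM in controls at 72 h (SD, n = 4 each). CD68 in SKNO-1 averaged 2.87 ± 0.798 FPKM with the inhibitors and 3.88 ± 1.37 FPKM in controls at 24 h and 5.96 ± 2.59 FPKM with the inhibitors and 7.80 ± 1.71 FPKM in controls at 72 h. The log2 changes were 0.26 and 0.18 in Kasumi-1 and -0.31 and -0.40 in SKNO-1, and none passed. NPC1, the membrane protein of the cholesterol exporter, rose in Kasumi-1 at 24 h, with 8.12 ± 1.25 FPKM with the inhibitors and 6.64 ± 0.210 FPKM in controls (log2 change 0.25 ± 0.086, adjusted p = 0.0465, limma). That call was lost on omission of any 1 of the 8 libraries (adjusted p 0.056 to 0.16). NPC1 overlaps C18orf8, which averaged up to 14.2 FPKM, and whether counting used strand is not given in the sources used here. In the other sets NPC1 changed by 0.22, 0.018 and 0.16, and did not pass.

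Of the proteases, CTSO and CTSB rose in all 4 sets, CTSH in both SKNO-1 sets and TPP1 in 1, and CTSC fell in 2. CTSO (ENSG00000256043, hg19 chromosome 4, 156845269 to 156875069), a cysteine cathepsin, had the largest change of any member in Kasumi-1. CTSO stood in Kasumi-1 at 9.13 and 8.95 FPKM with RN-1 and 8.83 and 9.94 FPKM with GSK690, against 1.41 and 1.64 FPKM with DMSO and 3.24 and 2.96 FPKM with GSK690* at 24 h. At 72 h CTSO in Kasumi-1 had 15.2 and 17.0 FPKM with RN-1 and 17.5 and 18.0 FPKM with GSK690, against 2.44 and 2.31 FPKM with DMSO and 3.36 and 3.35 FPKM with GSK690*. All inhibitor libraries lay above the controls, and at 24 h the GSK690* libraries lay above the DMSO ones. The log2 changes were 1.67 ± 0.098 and 2.22 ± 0.098 (± SE; adjusted p = 8.69e-11 and 4.91e-13, limma). CTSO stood in SKNO-1 at 0.921 and 0.297 FPKM with RN-1 and 0.75 and 0.452 FPKM with GSK690, against 0.196 and 0.115 FPKM with DMSO and 0.373 and 0.156 FPKM with GSK690* at 24 h. At 72 h CTSO in SKNO-1 had 0.571 and 0.747 FPKM with RN-1 and 0.807 and 0.867 FPKM with GSK690, against 0.218 and 0.192 FPKM with DMSO and 0.167 and 0.220 FPKM with GSK690*. Its level stayed under 1 FPKM in every SKNO-1 library, the groups overlapped at 24 h and were separate at 72 h, and the log2 changes were 0.40 ± 0.098 and 0.54 ± 0.098 (adjusted p = 0.0144 and 0.000788, limma). At such levels a pseudocount of 1 understates the change, and with a pseudocount of 0.1 the 4 log2 changes were 2.03 and 2.54 in Kasumi-1 and 1.16 and 1.49 in SKNO-1. The call in SKNO-1 at 24 h was lost on omission of RN-1 replicate 1, GSK690 replicate 1, DMSO replicate 2 or GSK690* replicate 2 (adjusted p 0.0638 to 0.129).

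CTSB (ENSG00000164733, hg19 chromosome 8, 11700032 to 11726957) encodes cathepsin B, an abundant cysteine protease of macrophages. CTSB stood in Kasumi-1 at 34.8 and 32.7 FPKM with RN-1 and 35.6 and 33.4 FPKM with GSK690, against 25.0 and 21 FPKM with DMSO and 25.4 and 25.9 FPKM with GSK690* at 24 h. At 72 h CTSB in Kasumi-1 had 52.7 and 42.5 FPKM with RN-1 and 53.3 and 46.6 FPKM with GSK690, against 28.2 and 29.0 FPKM with DMSO and 28.9 and 30.2 FPKM with GSK690*. The 4 inhibitor libraries lay above the 4 controls at both times, with log2 changes of 0.48 ± 0.11 and 0.72 ± 0.11 (adjusted p = 0.00524 and 7.99e-05, limma). CTSB stood in SKNO-1 at 45.3 and 29.2 FPKM with RN-1 and 40.1 and 33.9 FPKM with GSK690, against 30.4 and 27.0 FPKM with DMSO and 29.4 and 23.5 FPKM with GSK690* at 24 h. At 72 h CTSB in SKNO-1 had 50.5 and 39.2 FPKM with RN-1 and 50.7 and 45.9 FPKM with GSK690, against 35.0 and 31.7 FPKM with DMSO and 40.1 and 34.9 FPKM with GSK690*. The groups overlapped at both times in SKNO-1, and the log2 changes were 0.40 ± 0.11 and 0.38 ± 0.11 (adjusted p = 0.0305 and 0.0331, limma). The 24 h call was lost on omission of DMSO replicate 1, RN-1 replicate 1, GSK690 replicate 1, DMSO replicate 2 or GSK690* replicate 2 (adjusted p 0.0539 to 0.227), the 72 h call on omission of any library other than RN-1 replicate 2 or GSK690* replicate 1 (adjusted p 0.0507 to 0.129), and both in fits to the 8 libraries of a set.

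CTSH (ENSG00000103811, hg19 chromosome 15, 79213399 to 79241916), a cysteine cathepsin with aminopeptidase activity, was abundant in SKNO-1 and near the filter in Kasumi-1. CTSH had 51.5 and 28.1 FPKM with RN-1 and 63.4 and 35.8 FPKM with GSK690, against 24.4 and 22.8 FPKM with DMSO and 30.7 and 24.0 FPKM with GSK690* in SKNO-1 at 24 h. At 72 h CTSH in SKNO-1 had 55.3 and 54.4 FPKM with RN-1 and 65.5 and 64.0 FPKM with GSK690, against 25.5 and 31.2 FPKM with DMSO and 34.6 and 31.1 FPKM with GSK690*. The groups overlapped at 24 h, where replicate 1 of each inhibitor was higher than replicate 2, and they were separate at 72 h. The log2 changes were 0.73 ± 0.17 and 0.95 ± 0.17 (adjusted p = 0.0102 and 0.000808, limma), and the 24 h call was lost on omission of RN-1 replicate 1, GSK690 replicate 1 or GSK690* replicate 2 (adjusted p 0.0652 to 0.106). CTSH had 3.82 and 2.13 FPKM with RN-1 and 3.14 and 3.09 FPKM with GSK690, against 3.56 and 2.74 FPKM with DMSO and 2.35 and 2.62 FPKM with GSK690* in Kasumi-1 at 24 h. At 72 h CTSH in Kasumi-1 had 3.23 and 2.29 FPKM with RN-1 and 2.18 and 1.68 FPKM with GSK690, against 1.75 and 1.51 FPKM with DMSO and 1.55 and 1.23 FPKM with GSK690*. The groups overlapped at both times and neither change passed, at 0.075 and 0.40 (adjusted p = 0.819 and 0.0951, limma).

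CTSC (ENSG00000109861, hg19 chromosome 11, 88026759 to 88070955), the dipeptidyl peptidase that activates the serine proteases of myeloid granules, was the member that fell. CTSC had 159 and 154 FPKM with RN-1 and 151 and 156 FPKM with GSK690, against 180.1 and 167 FPKM with DMSO and 182 and 167 FPKM with GSK690* in Kasumi-1 at 24 h. At 72 h CTSC in Kasumi-1 had 192 and 185 FPKM with RN-1 and 183 and 184 FPKM with GSK690, against 200.2 and 192 FPKM with DMSO and 199 and 194 FPKM with GSK690*. All inhibitor libraries were below the controls at 24 h, and the groups overlapped at 72 h, where the highest inhibitor value equalled the lowest control to the digits shown. CTSC had 194 and 188 FPKM with RN-1 and 195 and 222 FPKM with GSK690, against 232 and 223 FPKM with DMSO and 229 and 214 FPKM with GSK690* in SKNO-1 at 24 h. At 72 h CTSC in SKNO-1 had 240.4 and 213 FPKM with RN-1 and 225 and 235 FPKM with GSK690, against 288 and 254 FPKM with DMSO and 283 and 268 FPKM with GSK690*. The inhibitor libraries were again below all controls at 72 h. CTSC fell by 0.17 ± 0.057 on the log2 scale in Kasumi-1 at 24 h (adjusted p = 0.0433) and fell by 0.26 ± 0.057 in SKNO-1 at 72 h (adjusted p = 0.00431, limma), and the changes of -0.076 and -0.17 in the other 2 sets did not pass. The Kasumi-1 call was lost on omission of any library other than GSK690* replicate 2 or DMSO replicate 2 (adjusted p 0.0704 to 0.18), with quantile normalization (-0.054, adjusted p = 0.557) and with median-of-ratios scaling (adjusted p = 0.0917). The SKNO-1 call was lost in a fit to that set's 8 libraries.

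CTSD (ENSG00000117984, hg19 chromosome 11, 1773981 to 1785222), the main aspartic protease of lysosomes, did not pass in any set. CTSD had 129 and 119.8 FPKM with RN-1 and 129.5 and 126 FPKM with GSK690, against 141 and 109.8 FPKM with DMSO and 117 and 113 FPKM with GSK690* in Kasumi-1 at 24 h. At 72 h CTSD in Kasumi-1 had 155 and 124 FPKM with RN-1 and 142 and 130.4 FPKM with GSK690, against 128 and 128 FPKM with DMSO and 123 and 132 FPKM with GSK690*. The groups overlapped, with log2 changes of 0.074 ± 0.15 and 0.10 ± 0.15. CTSD had 50.7 and 40.6 FPKM with RN-1 and 44.5 and 47.5 FPKM with GSK690, against 57.7 and 47.6 FPKM with DMSO and 52.1 and 40.1 FPKM with GSK690* in SKNO-1 at 24 h. At 72 h CTSD in SKNO-1 had 64.6 and 51.7 FPKM with RN-1 and 63.6 and 42.3 FPKM with GSK690, against 72.8 and 60.1 FPKM with DMSO and 84.2 and 46.8 FPKM with GSK690*. These groups overlapped too, with log2 changes of -0.10 ± 0.15 and -0.23 ± 0.15 (adjusted p = 0.788, 0.664, 0.755 and 0.347 in the 4 sets, limma).

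TPP1, a serine protease that removes tripeptides, rose in Kasumi-1 at 24 h, where it averaged 63.8 ± 0.663 FPKM with the inhibitors and 54.1 ± 3.70 FPKM in controls (SD, n = 4 each; log2 change 0.24 ± 0.063, adjusted p = 0.0112, limma). Its changes of 0.056, -0.086 and -0.089 in the other sets did not pass. CTSA, the protective protein of the sialidase and beta-galactosidase complex, had log2 changes between -0.13 and -0.022 and overlaps PLTP, which averaged up to 59.3 FPKM. CTSZ, a carboxypeptidase, had 0.074 and 0.08 in Kasumi-1 and 0.30 and 0.19 in SKNO-1. CTSK, known from osteoclasts, ranged over 0.752 to 2.01 FPKM and changed by 0.06 to 0.23. None of these 3 proteases passed in any set.

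**Figure D2:**
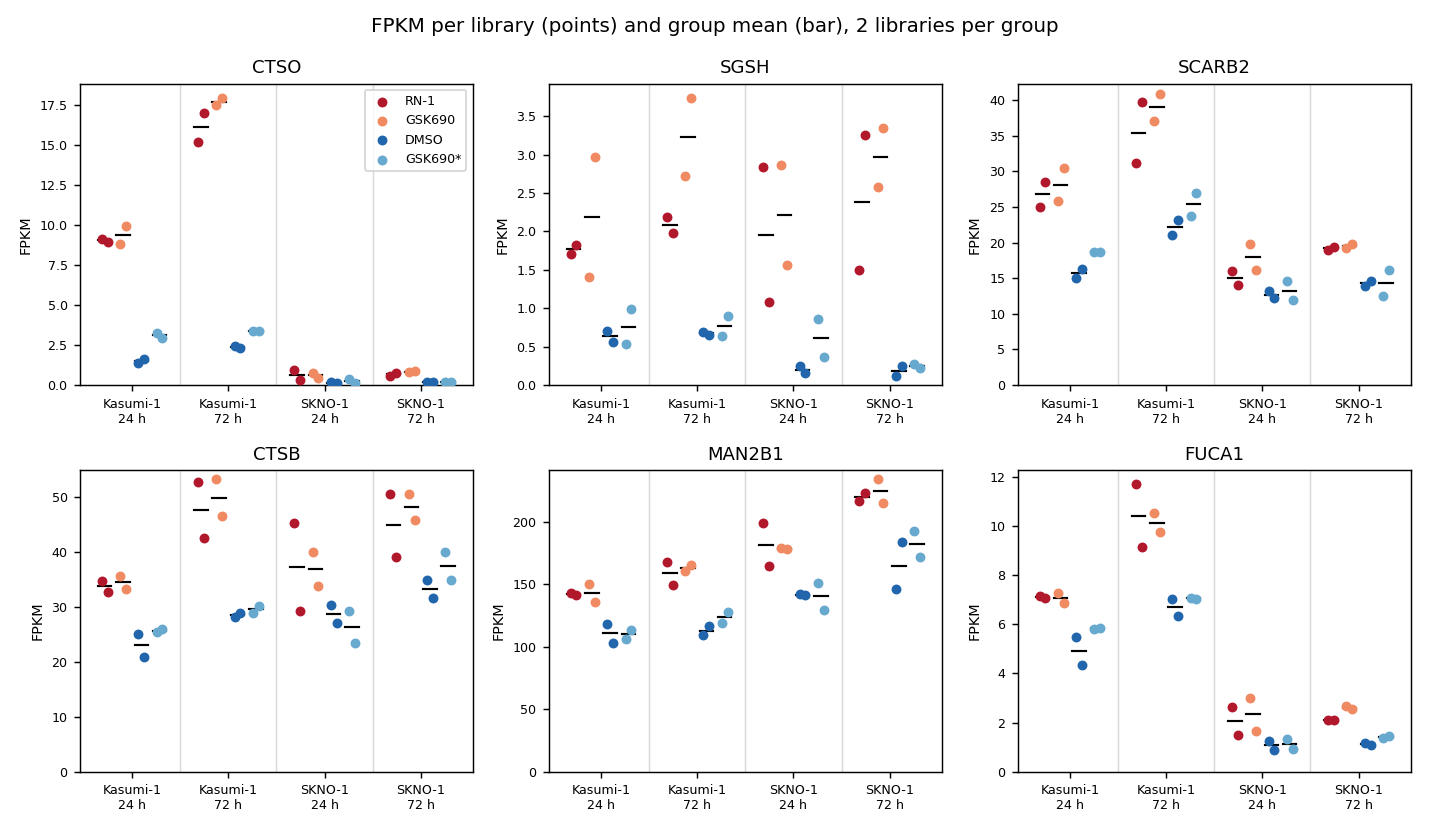
FPKM per library (points) and group mean (bars) for the 6 lysosomal genes that passed in all 4 sets, with RN-1, GSK690, DMSO and GSK690* side by side for each line and time. CTSO reaches 18.0 FPKM in Kasumi-1 and stays under 1 FPKM in SKNO-1, and SGSH with the inhibitors is above every control of its set in all 4 sets.

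Of the 9 genes of glycan breakdown, 4 rose in Kasumi-1 at each time and 3 in SKNO-1 at each time, where 9.69% and 13% of all tested genes rose in Kasumi-1 and 5.64% and 6.91% in SKNO-1. SGSH, MAN2B1 and FUCA1 rose in every set, and NEU1 in Kasumi-1. SGSH (ENSG00000181523, hg19 chromosome 17, 78180514 to 78194722) encodes the sulfamidase of heparan sulfate breakdown that is deficient in Sanfilippo syndrome A. SGSH stood in Kasumi-1 at 1.71 and 1.82 FPKM with RN-1 and 1.41 and 2.97 FPKM with GSK690, against 0.706 and 0.559 FPKM with DMSO and 0.538 and 0.985 FPKM with GSK690* at 24 h. At 72 h SGSH in Kasumi-1 had 2.18 and 1.98 FPKM with RN-1 and 2.72 and 3.74 FPKM with GSK690, against 0.694 and 0.651 FPKM with DMSO and 0.635 and 0.896 FPKM with GSK690*. The groups were separate at both times, with log2 changes of 0.79 ± 0.19 and 1.07 ± 0.19 (adjusted p = 0.00565 and 0.000318, limma). SGSH stood in SKNO-1 at 2.84 and 1.08 FPKM with RN-1 and 2.86 and 1.57 FPKM with GSK690, against 0.241 and 0.162 FPKM with DMSO and 0.858 and 0.367 FPKM with GSK690* at 24 h. At 72 h SGSH in SKNO-1 had 1.5 and 3.26 FPKM with RN-1 and 2.58 and 3.35 FPKM with GSK690, against 0.116 and 0.247 FPKM with DMSO and 0.273 and 0.217 FPKM with GSK690*. Here too all inhibitor libraries lay above the controls, all of which were under 1 FPKM, and the log2 changes were 1.11 ± 0.19 and 1.57 ± 0.19 (adjusted p = 0.000719 and 6.67e-06, limma). Since SGSH passed the filter only through the inhibitor libraries of both lines, these tests are not independent of that filter. Without a filter its adjusted p was 0.0139 and 0.00126 in Kasumi-1 and 0.00301 and 6.45e-05 in SKNO-1, and the SKNO-1 call at 24 h was lost in the fit to that set's 8 libraries (adjusted p = 0.0844). The call in Kasumi-1 at 24 h was lost on omission of GSK690 replicate 2 (adjusted p 0.0506). SGSH overlaps CARD14 and SLC26A11, which averaged at most 0.129 FPKM.

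MAN2B1 (ENSG00000104774, hg19 chromosome 19, 12757324 to 12777556), the alpha-mannosidase that trims N-glycans, is the most abundant glycosidase of the list. MAN2B1 stood in Kasumi-1 at 143 and 142 FPKM with RN-1 and 150.0 and 136 FPKM with GSK690, against 118 and 103 FPKM with DMSO and 106 and 114 FPKM with GSK690* at 24 h. At 72 h MAN2B1 in Kasumi-1 had 168 and 149.8 FPKM with RN-1 and 161 and 165 FPKM with GSK690, against 109 and 117 FPKM with DMSO and 119 and 128 FPKM with GSK690*. The groups were separate, with log2 changes of 0.37 ± 0.077 and 0.44 ± 0.077 (adjusted p = 0.00187 and 0.000219, limma). MAN2B1 stood in SKNO-1 at 199 and 164 FPKM with RN-1 and 179 and 178 FPKM with GSK690, against 142 and 141 FPKM with DMSO and 151 and 129 FPKM with GSK690* at 24 h. At 72 h MAN2B1 in SKNO-1 had 216 and 223 FPKM with RN-1 and 234 and 215 FPKM with GSK690, against 146 and 184 FPKM with DMSO and 192 and 171 FPKM with GSK690*. They were separate again, with log2 changes of 0.35 ± 0.077 and 0.36 ± 0.077 (adjusted p = 0.00638 and 0.00322, limma). The 24 h call in SKNO-1 was lost on omission of RN-1 replicate 1 or GSK690* replicate 2 (adjusted p 0.0518 to 0.0612), and both SKNO-1 calls in fits to the 8 libraries of a set.

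FUCA1 (ENSG00000179163, hg19 chromosome 1, 24171566 to 24194784) encodes the fucosidase of lysosomes. FUCA1 stood in Kasumi-1 at 7.14 and 7.07 FPKM with RN-1 and 7.27 and 6.88 FPKM with GSK690, against 5.47 and 4.34 FPKM with DMSO and 5.81 and 5.85 FPKM with GSK690* at 24 h. At 72 h FUCA1 in Kasumi-1 had 11.7 and 9.12 FPKM with RN-1 and 10.5 and 9.75 FPKM with GSK690, against 7.02 and 6.35 FPKM with DMSO and 7.08 and 7.02 FPKM with GSK690*. The inhibitor libraries were above the controls, with log2 changes of 0.35 ± 0.12 and 0.52 ± 0.12 (adjusted p = 0.0407 and 0.00315, limma). FUCA1 stood in SKNO-1 at 2.62 and 1.48 FPKM with RN-1 and 3 and 1.68 FPKM with GSK690, against 1.26 and 0.901 FPKM with DMSO and 1.32 and 0.934 FPKM with GSK690* at 24 h. At 72 h FUCA1 in SKNO-1 had 2.12 and 2.12 FPKM with RN-1 and 2.66 and 2.54 FPKM with GSK690, against 1.18 and 1.10 FPKM with DMSO and 1.37 and 1.45 FPKM with GSK690*. They were also above the controls in SKNO-1, by 0.58 ± 0.12 and 0.56 ± 0.12 (adjusted p = 0.00366 and 0.00329, limma). The call in Kasumi-1 at 24 h was lost on omission of any library other than DMSO replicate 1 (adjusted p 0.0805 to 0.152).

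NEU1 (ENSG00000204386, hg19 chromosome 6, 31825435 to 31830683), the lysosomal sialidase, rose in Kasumi-1. NEU1 stood in Kasumi-1 at 27.1 and 28.6 FPKM with RN-1 and 26.7 and 29.3 FPKM with GSK690, against 22.2 and 23.5 FPKM with DMSO and 22.0 and 24.9 FPKM with GSK690* at 24 h. At 72 h NEU1 in Kasumi-1 had 42.9 and 38.4 FPKM with RN-1 and 39.3 and 38.6 FPKM with GSK690, against 29.9 and 31.8 FPKM with DMSO and 29.9 and 34.3 FPKM with GSK690*. The groups were separate at both times, by 0.26 ± 0.092 and 0.33 ± 0.092 on the log2 scale (adjusted p = 0.0483 and 0.011, limma), with the call lost at 24 h on omission of any library other than GSK690* replicate 2 (adjusted p 0.0607 to 0.181) and at 72 h on omission of GSK690* replicate 1 (adjusted p 0.0634). NEU1 stood in SKNO-1 at 10.5 and 7.98 FPKM with RN-1 and 11.1 and 9.03 FPKM with GSK690, against 9.84 and 8.37 FPKM with DMSO and 9.94 and 8.70 FPKM with GSK690* at 24 h. At 72 h NEU1 in SKNO-1 had 12.8 and 14.2 FPKM with RN-1 and 12.6 and 14.3 FPKM with GSK690, against 12.2 and 14.1 FPKM with DMSO and 14.7 and 12 FPKM with GSK690*. The groups overlapped, and the changes of 0.052 and 0.024 stayed short of the threshold (adjusted p = 0.791 and 0.911, limma).

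The other 5 glycan genes did not pass in any set, although IDS and ARSB did under other settings. IDS, the iduronate sulfatase that acts before SGSH on heparan sulfate, averaged 12.6 ± 0.435 FPKM with the inhibitors and 9.52 ± 1.32 FPKM in controls of Kasumi-1 at 24 h (SD, n = 4 each), where all inhibitor libraries were above the controls. Its log2 changes were 0.38 and 0.20 in Kasumi-1 and 0.42 and 0.38 in SKNO-1, with the smallest adjusted p at 0.0515 (limma). In Kasumi-1 at 24 h IDS passed in the fit to that set's 8 libraries (adjusted p = 0.00492), with median-of-ratios scaling (0.0306), with quantile normalization (0.0363) and with a pseudocount of 0.1 (0.0445). In SKNO-1 at 24 h it passed with median-of-ratios scaling (0.0378) and quantile normalization (0.0371). With a block for replicate number IDS passed in Kasumi-1 at 24 h (0.00428) and in SKNO-1 at 24 h (0.00356) and 72 h (0.00689). GAA, the glycogen glucosidase lost in Pompe disease, had 0.076, -0.11, 0.33 and 0.24 in the same order of sets. GUSB, the beta-glucuronidase, had 0.052, 0.13, -0.086 and -0.17. NAGLU, which also acts on heparan sulfate, ranged over 7.34 to 18.3 FPKM with changes between -0.14 and 0.032. ARSB, a sulfatase of dermatan sulfate, had -0.35 in Kasumi-1 at 72 h, where all inhibitor libraries were below the controls, and -0.14, 0.057 and 0.055 elsewhere. The change of ARSB in Kasumi-1 at 72 h passed with the block for replicate number (adjusted p = 0.00325, limma).

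Of the 8 genes of lipid breakdown, 4 rose in Kasumi-1 at 24 h and 5 at 72 h, where 9.69% and 13% of all tested genes rose. None passed in SKNO-1 at either time (limma), where 5.64% and 6.91% of all genes rose, so that a count of 0 among 8 is near the share of all genes. In SKNO-1, at an unadjusted p under 0.05, NPC2 was higher and LIPA lower at both times, and ARSA was higher at 72 h. NPC2 (ENSG00000119655, hg19 chromosome 14, 74942894 to 74960880) is the soluble protein that hands cholesterol to NPC1. NPC2 stood in Kasumi-1 at 89.3 and 90.8 FPKM with RN-1 and 95.8 and 98.2 FPKM with GSK690, against 64.9 and 65.5 FPKM with DMSO and 75.6 and 74.0 FPKM with GSK690* at 24 h. At 72 h NPC2 in Kasumi-1 had 154 and 125 FPKM with RN-1 and 131 and 125 FPKM with GSK690, against 75.7 and 83.9 FPKM with DMSO and 80.3 and 94.6 FPKM with GSK690*. Inhibitor and control libraries were separate at both times, with log2 changes of 0.42 ± 0.086 and 0.67 ± 0.086 (adjusted p = 0.00182 and 6.87e-06, limma). NPC2 stood in SKNO-1 at 48.0 and 42.0 FPKM with RN-1 and 50.9 and 47.6 FPKM with GSK690, against 41.9 and 36.7 FPKM with DMSO and 44.2 and 36.1 FPKM with GSK690* at 24 h. At 72 h NPC2 in SKNO-1 had 66.0 and 62.7 FPKM with RN-1 and 60.2 and 67.2 FPKM with GSK690, against 46.8 and 60.9 FPKM with DMSO and 55.7 and 60.7 FPKM with GSK690*. The groups overlapped, and 0.24 and 0.20 stayed short of the threshold (adjusted p = 0.0852 and 0.153, limma). NPC2 overlaps ISCA2, which averaged up to 15.2 FPKM.

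ASAH1 (ENSG00000104763, hg19 chromosome 8, 17913933 to 17942494) encodes acid ceramidase, which splits ceramide. ASAH1 stood in Kasumi-1 at 86.3 and 80.2 FPKM with RN-1 and 87.4 and 89.3 FPKM with GSK690, against 63.6 and 65.4 FPKM with DMSO and 75.2 and 75.5 FPKM with GSK690* at 24 h. At 72 h ASAH1 in Kasumi-1 had 93.6 and 88.3 FPKM with RN-1 and 91.9 and 93.6 FPKM with GSK690, against 72.6 and 63.7 FPKM with DMSO and 71.4 and 68.0 FPKM with GSK690*. No inhibitor library overlapped the controls, with log2 changes of 0.29 ± 0.055 and 0.41 ± 0.055 (adjusted p = 0.00073 and 1.16e-05, limma), and at 24 h the GSK690* libraries stood between DMSO and the inhibitors. ASAH1 stood in SKNO-1 at 40.8 and 41.4 FPKM with RN-1 and 43.0 and 46.4 FPKM with GSK690, against 42.3 and 41.4 FPKM with DMSO and 45.0 and 41.3 FPKM with GSK690* at 24 h. At 72 h ASAH1 in SKNO-1 had 49.1 and 45.2 FPKM with RN-1 and 46.4 and 48.3 FPKM with GSK690, against 49.3 and 46.3 FPKM with DMSO and 47.8 and 53.1 FPKM with GSK690*. In SKNO-1 the groups overlapped and the changes were 0.013 and -0.054 (adjusted p = 0.926 and 0.587, limma).

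PSAP (ENSG00000197746, hg19 chromosome 10, 73576054 to 73611126), the precursor of the saposins that present lipids to hydrolases, had the highest median FPKM of the members. PSAP stood in Kasumi-1 at 342 and 337 FPKM with RN-1 and 349 and 338 FPKM with GSK690, against 296 and 252 FPKM with DMSO and 289 and 283 FPKM with GSK690* at 24 h. At 72 h PSAP in Kasumi-1 had 332 and 305 FPKM with RN-1 and 330.5 and 310.0 FPKM with GSK690, against 249 and 265 FPKM with DMSO and 258 and 271 FPKM with GSK690*. Groups did not overlap, with log2 changes of 0.29 ± 0.075 and 0.29 ± 0.075 (adjusted p = 0.00924 and 0.00651, limma), and the 24 h call was lost on omission of DMSO replicate 2 (adjusted p 0.0561). PSAP stood in SKNO-1 at 243 and 208 FPKM with RN-1 and 247 and 246 FPKM with GSK690, against 239 and 214 FPKM with DMSO and 238 and 197 FPKM with GSK690* at 24 h. At 72 h PSAP in SKNO-1 had 277 and 252 FPKM with RN-1 and 281 and 239.5 FPKM with GSK690, against 252 and 263 FPKM with DMSO and 280.3 and 243 FPKM with GSK690*. The groups overlapped, and 0.091 and 0.014 stayed short of the threshold (adjusted p = 0.494 and 0.938, limma).

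HEXA (ENSG00000213614, hg19 chromosome 15, 72635774 to 72668817), the hexosaminidase subunit lost in Tay-Sachs disease, rose in Kasumi-1. HEXA stood in Kasumi-1 at 101 and 102 FPKM with RN-1 and 102 and 105 FPKM with GSK690, against 83.7 and 77.9 FPKM with DMSO and 89.7 and 91.5 FPKM with GSK690* at 24 h. At 72 h HEXA in Kasumi-1 had 122 and 105 FPKM with RN-1 and 111 and 103 FPKM with GSK690, against 93.9 and 89.8 FPKM with DMSO and 87.9 and 93.3 FPKM with GSK690*. Both times showed separate groups, with log2 changes of 0.25 ± 0.061 and 0.26 ± 0.061 (adjusted p = 0.00521 and 0.00298, limma). HEXA stood in SKNO-1 at 99.6 and 95.1 FPKM with RN-1 and 97.1 and 112 FPKM with GSK690, against 103 and 95.8 FPKM with DMSO and 98.0 and 85.8 FPKM with GSK690* at 24 h. At 72 h HEXA in SKNO-1 had 113 and 107 FPKM with RN-1 and 108 and 113 FPKM with GSK690, against 103 and 112 FPKM with DMSO and 109 and 109 FPKM with GSK690*. Those groups overlapped, and 0.078 and 0.024 missed the threshold (adjusted p = 0.475 and 0.86, limma).

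ARSA, the sulfatase of sulfatides, rose in Kasumi-1 at 72 h, with 13.5 ± 1.55 FPKM with the inhibitors and 9.85 ± 1.49 FPKM in controls (SD, n = 4 each; log2 change 0.42 ± 0.15, adjusted p = 0.0418, limma). The groups overlapped, and the call was lost on omission of DMSO replicate 1, RN-1 replicate 1, GSK690* replicate 1, GSK690 replicate 1 or GSK690 replicate 2 (adjusted p 0.0805 to 0.176) and in the fit to that set's 8 libraries (adjusted p = 0.0504). The other changes of ARSA were 0.37, 0.24 and 0.33. LIPA, the acid lipase, had -0.0094 and -0.11 in Kasumi-1 and -0.26 and -0.25 in SKNO-1, and its locus spans IFIT genes that averaged up to 6.23 FPKM. GLB1, the beta-galactosidase, changed by -0.10 to -0.0049, and GLA, the galactosidase lost in Fabry disease, by -0.15 to -0.0068. LIPA, GLB1 and GLA did not pass in any set.

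GRN (ENSG00000030582, hg19 chromosome 17, 42422613 to 42430470) encodes progranulin, a secreted protein that lysosomes cut into granulins. GRN stood in Kasumi-1 at 130.2 and 145 FPKM with RN-1 and 136 and 134 FPKM with GSK690, against 108 and 93.7 FPKM with DMSO and 94.1 and 108 FPKM with GSK690* at 24 h. At 72 h GRN in Kasumi-1 had 218 and 179 FPKM with RN-1 and 201 and 205 FPKM with GSK690, against 143 and 167 FPKM with DMSO and 138 and 178 FPKM with GSK690*. The 2 sides stayed apart at both times, with log2 changes of 0.43 ± 0.15 (adjusted p = 0.0399) and 0.36 ± 0.15 (adjusted p = 0.0713, limma), of which the 24 h one passed and was lost on omission of any library other than GSK690* replicate 2 (adjusted p 0.0588 to 0.139). GRN stood in SKNO-1 at 98.1 and 62.7 FPKM with RN-1 and 85.1 and 74.7 FPKM with GSK690, against 50.9 and 46.7 FPKM with DMSO and 61.7 and 41.4 FPKM with GSK690* at 24 h. At 72 h GRN in SKNO-1 had 118 and 137 FPKM with RN-1 and 138 and 126 FPKM with GSK690, against 59.3 and 93.9 FPKM with DMSO and 97.6 and 84.7 FPKM with GSK690*. All inhibitor libraries were above the controls there, with log2 changes of 0.66 ± 0.15 and 0.65 ± 0.15 (adjusted p = 0.0061 and 0.00504, limma). The 24 h call was lost on omission of RN-1 replicate 1 or GSK690* replicate 2 (adjusted p 0.0563 to 0.062), and both in fits to the 8 libraries of a set.

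**Figure D3:**
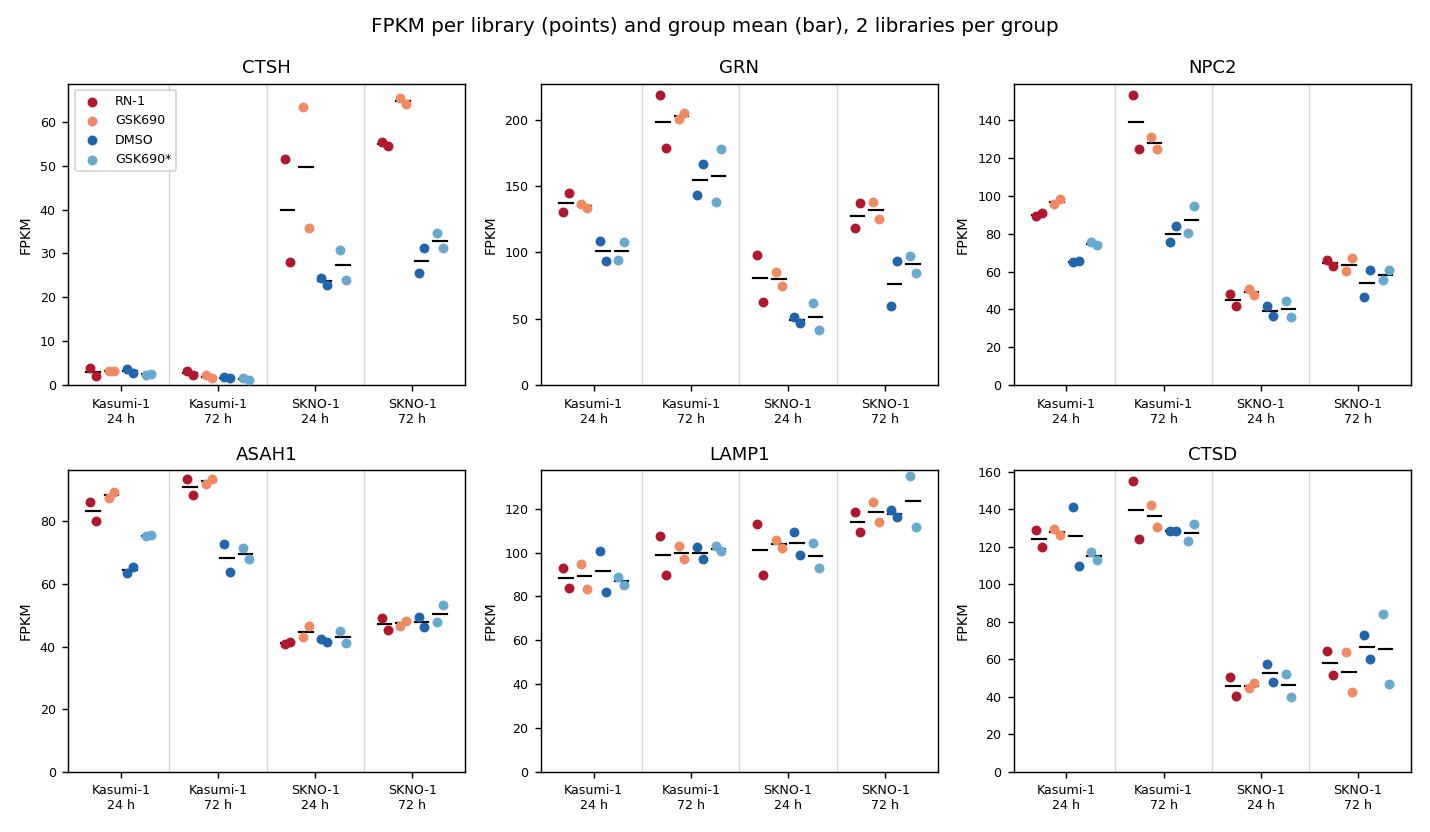
FPKM per library (points) and group mean (bars) for CTSH, GRN, NPC2, ASAH1, LAMP1 and CTSD, with RN-1, GSK690, DMSO and GSK690* side by side for each line and time. NPC2 and ASAH1 with the inhibitors stand above the controls in Kasumi-1 and overlap them in SKNO-1, CTSH reaches 65.5 FPKM in SKNO-1 and stays under 4 FPKM in Kasumi-1, and LAMP1 and CTSD overlap everywhere.

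The responses of the lines were compared directly, as the inhibitor change in Kasumi-1 minus that in SKNO-1. Culture medium goes with line here too, and at 72 h so does most of the name prefix. Within each set, inhibitors and controls hold the same mix of prefixes. At 24 h 1 member passed, CTSO, where 1.12% of all genes did (2 members without SKNO-1 RN-1 replicate 2), and at 72 h 3 members passed, CTSO, NPC2 and ASAH1, against 3.47% of all genes. CTSO changed more in Kasumi-1 by 1.27 ± 0.14 at 24 h (adjusted p = 1.08e-05) and by 1.68 ± 0.14 at 72 h (adjusted p = 8.22e-08, limma). With a pseudocount of 0.1 the difference for CTSO was 0.88 (adjusted p = 0.294) and 1.04 (adjusted p = 0.0924) and did not pass. The difference at 72 h was 0.47 ± 0.12 for NPC2 (adjusted p = 0.0297) and 0.46 ± 0.078 for ASAH1 (adjusted p = 0.000858, limma). The call for NPC2 was lost on leaving out any 1 of 9 of the 16 libraries of 72 h (adjusted p 0.0526 to 0.103). These were replicate 1 of each of the 4 agents and GSK690 replicate 2 in Kasumi-1, and GSK690 replicate 1 and DMSO, RN-1 and GSK690* replicate 2 in SKNO-1. PSAP, HEXA and NEU1, which passed in Kasumi-1 and not in SKNO-1, and CTSH, which passed in SKNO-1 and not in Kasumi-1, did not pass this test. The differences for CTSH were -0.65 ± 0.24 and -0.55 ± 0.24 (adjusted p = 0.288 and 0.288, limma).

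Between 72 and 24 h, no member's inhibitor change differed in limma, against 0.202% of all genes in Kasumi-1 and 0% in SKNO-1. At an unadjusted p under 0.05, 1 member differed in Kasumi-1 and none in SKNO-1. For CTSO in Kasumi-1 the difference was 0.55 ± 0.14 (adjusted p = 0.135), and for SGSH in SKNO-1 it was 0.46 ± 0.27 (adjusted p = 1).

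RN-1 and GSK690 were compared at the same dose and times in the 33 tested members, and none differed in any of the 4 sets (limma), where 1 gene of 11889 (0.00841%) differed in Kasumi-1 at 72 h and none (0%) in the other sets. The smallest adjusted p among members was 0.676, in Kasumi-1 at 72 h. At an unadjusted p under 0.05, 1 member differed in each set: NPC1 in Kasumi-1 at 24 h (0.33), CD63 in Kasumi-1 at 72 h (0.20), LAMP2 in SKNO-1 at 24 h (-0.25) and GLB1 in SKNO-1 at 72 h (-0.16), as RN-1 minus GSK690 and named after their values were seen. The 95% interval of a difference reached 0.28 on the log2 scale to either side for the median member and 0.79 for the widest. For CTSO the interval was -0.34 to 0.24 in Kasumi-1 at 24 h and -0.42 to 0.16 at 72 h. For SGSH, the widest, it was -1.01 to 0.12 in Kasumi-1 at 72 h and -0.84 to 0.29 in SKNO-1 at 72 h.

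Each inhibitor was also set against its own control, RN-1 against DMSO and GSK690 against GSK690*, which share no library. For RN-1, 9 members passed in each Kasumi-1 set, 1 in SKNO-1 at 24 h and 4 at 72 h, all higher, against 5.47%, 7.44%, 1.82% and 2.94% of all genes higher. With 1 library left out, 2 to 3 members passed in Kasumi-1 at 24 h whichever of the 4 it was, and at 72 h 4 without DMSO or RN-1 replicate 1. In SKNO-1 at 24 h 7 passed without RN-1 replicate 2 and none without any of the other 3, and at 72 h 1 passed without DMSO or RN-1 replicate 1 and none without RN-1 replicate 2. For GSK690, 2 and 7 members passed in Kasumi-1 at 24 and 72 h, none in SKNO-1 at 24 h and 3 at 72 h, all higher, against 2.52%, 6.02%, 1.52% and 2.53%. Without GSK690* replicate 1, GSK690* replicate 2 or GSK690 replicate 2, 1 passed in Kasumi-1 at 24 h. At 72 h in Kasumi-1 2 passed without GSK690* replicate 1 and 4 without either GSK690 replicate. In SKNO-1 4 passed at 24 h without GSK690 replicate 2, and 1 at 72 h without GSK690* replicate 1 or either GSK690 replicate. In SKNO-1 at 24 h, 12 members were higher with GSK690 at an unadjusted p under 0.05. The 2 contrasts had the same sign for 26 of 33 members in Kasumi-1 at 24 h, 31 at 72 h, and for 24 and 27 in SKNO-1. Across the 33 members they correlated with r = 0.908 and 0.962 in Kasumi-1 and 0.946 and 0.945 in SKNO-1, a description over genes of the same libraries and not a test.

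For GSK690*, the isomer labelled inactive, no member passed against DMSO in any set (limma, without a term for replicate number), and no gene (0%) did among all those tested. At an unadjusted p under 0.05, 2 members were higher with GSK690* in Kasumi-1 at 24 h, 1 in Kasumi-1 at 72 h and none in SKNO-1. CTSO was the largest, at 0.70 (95% interval 0.41 to 0.99, adjusted p = 0.205) at 24 h and 0.37 (0.078 to 0.66, adjusted p = 1) at 72 h in Kasumi-1. The other was ASAH1 at 24 h, with 0.22 (0.06 to 0.38, adjusted p = 1). Against its isomer, CTSO with GSK690 was higher by 1.34 ± 0.14 in Kasumi-1 at 24 h, while with RN-1 against DMSO it was higher by 1.99 ± 0.14. With the 2 inhibitors its level was 8.83 to 9.94 FPKM.

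**Figure D4:**
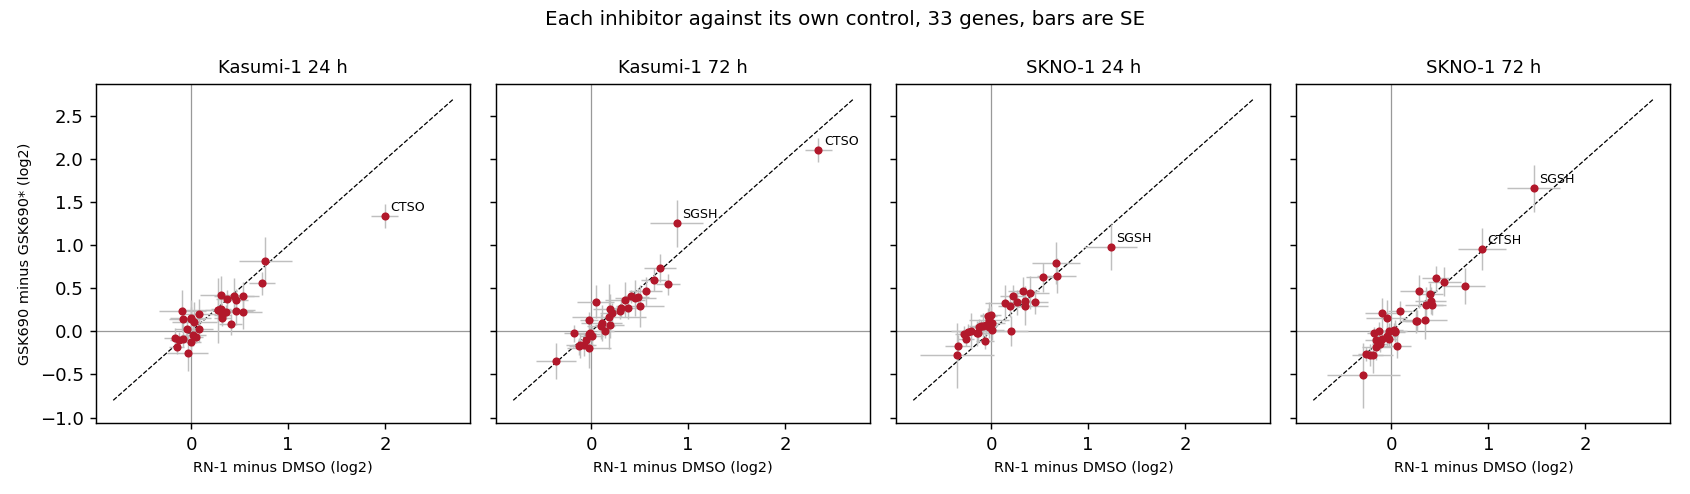
Log2 change of each tested member with RN-1 against DMSO (horizontal axis) and with GSK690 against GSK690* (vertical axis) on the log2(FPKM + 1) scale, 1 panel per set of line and time, with the line of equal change. Across members r was 0.908 to 0.962, which does not measure distance from that line. CTSO in Kasumi-1 and SGSH stand apart at the upper right, and CTSO in Kasumi-1 at 24 h is at 1.99 against 1.34.

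Without an active inhibitor, the lines differed in most members, and in most of all tested genes. In the DMSO and GSK690* libraries 17 members were higher and 9 lower in Kasumi-1 than in SKNO-1 at 24 h, where 30.9% and 38.2% of all genes were. At 72 h 17 were higher and 12 lower, against 32.6% and 38.2%. Line and culture medium cannot be told apart here. At 72 h line is also largely tied to the name prefix, and the protocol gives 4 days for SKNO-1. TPP1 was 2.49 ± 0.063 higher on the log2 scale in Kasumi-1 at 24 h and 2.38 ± 0.063 at 72 h, with 54.1 ± 3.70 FPKM in Kasumi-1 controls and 8.82 ± 0.185 FPKM in SKNO-1 controls at 24 h (SD, n = 4 each). CTSH was the reverse, at -2.79 ± 0.17 and -3.65 ± 0.17. FUCA1, at 1.596 ± 0.12 and 1.79 ± 0.12, and CTSO, at 1.41 ± 0.098 and 1.68 ± 0.098, were higher in Kasumi-1. GRN was higher in Kasumi-1 controls by 1.01 ± 0.15 and 0.91 ± 0.15, and CTSD by 1.27 ± 0.15 and 0.98 ± 0.15. LAMP1 differed by -0.18 and -0.25, of which the 72 h difference passed (adjusted p = 0.0583 and 0.0111, limma).

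**Figure D5:**
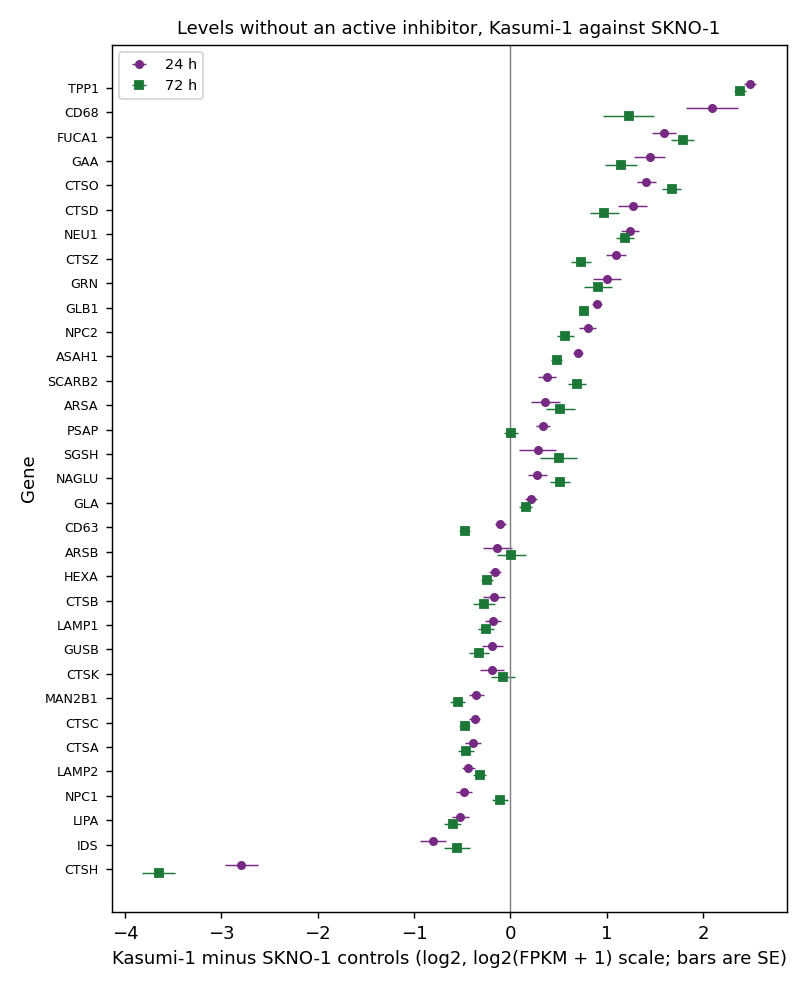
Difference between Kasumi-1 and SKNO-1 controls (DMSO and GSK690*) for each tested member on the log2(FPKM + 1) scale, at 24 h and 72 h, with bars of 1 SE. TPP1 stands at 2.49 and 2.38 at the top and CTSH at -2.79 and -3.65 at the bottom.

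Other genes of the lysosome were taken from lists outside the 34. Of 29 other hydrolases tested, 9 rose and 2 fell in Kasumi-1 at 24 h, 11 rose and 2 fell at 72 h, and in SKNO-1 5 rose and 1 fell at 24 h and 7 rose at 72 h, where 2 were lower at an unadjusted p under 0.05 in limma. Among all tested genes 9.69% rose and 11.2% fell in Kasumi-1 at 24 h, 13% and 12.7% at 72 h, and in SKNO-1 5.64% and 3.44% at 24 h and 6.91% and 4.16% at 72 h. CTSS, cathepsin S of antigen presentation, rose by 1.37 and 1.35 in Kasumi-1 and 0.52 and 0.48 in SKNO-1 on the log2 scale. SCPEP1, a serine carboxypeptidase, rose by 0.75, 1.29, 2.399 and 2.48 in the same order of sets. IFI30, a thiol reductase, rose by 1.55 in Kasumi-1 at 72 h, NAAA, an acid amidase, by 0.43 in SKNO-1 at 24 h, and ARSG, a sulfatase, by 0.54 in SKNO-1 at 72 h. The list's median log2 change was 0.16 and 0.19 in Kasumi-1 and 0.17 and 0.07 in SKNO-1.

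Of 22 transporters and other membrane proteins of the lysosome, 4 rose in each Kasumi-1 set and 3 in each SKNO-1 set, and 2 and 1 fell in Kasumi-1 at 24 and 72 h. The shares of all tested genes that rose were 9.69% and 13% in Kasumi-1 and 5.64% and 6.91% in SKNO-1, and those that fell in Kasumi-1 were 11.2% and 12.7%. In each SKNO-1 set, where none fell, 2 were lower at an unadjusted p under 0.05 (limma). SLC15A3, a histidine and peptide transporter, rose by 1.37, 1.24, 1.25 and 1.2. LAPTM5, a membrane protein of blood cell lysosomes, rose by 0.46 and 0.74 in Kasumi-1. SLC11A2, an iron transporter, rose by 0.42 and 0.48 in SKNO-1. LAPTM4A rose by 0.25 and 0.38 in Kasumi-1 and 0.27 and 0.32 in SKNO-1. ABCB9 fell by 0.39 in Kasumi-1 at 24 h and SLC17A5, the sialic acid exporter, rose by 0.39 at 72 h.

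Of 18 subunits and accessory proteins of the V-ATPase, the proton pump that acidifies the lysosome, none passed in Kasumi-1 at 24 h or in SKNO-1 at 72 h, where 1 and 4 had an unadjusted p under 0.05 (limma). ATP6V1H (0.22) and ATP6V1E1 (0.21) rose in Kasumi-1 at 72 h. ATP6V1B2 rose (0.20) and ATP6V1C1 fell (-0.29) in SKNO-1 at 24 h. Of all tested genes 9.69% and 13% rose in Kasumi-1 and 5.64% and 6.91% in SKNO-1. The shares that fell were 11.2% and 12.7% in Kasumi-1 and 3.44% and 4.16% in SKNO-1. The counts among the 18 are near or below these shares. Of 21 genes that sort hydrolases to the lysosome, 1 fell in Kasumi-1 at 24 h, 4 at 72 h and 1 in each SKNO-1 set. None rose in limma in any set, and 1 was higher at an unadjusted p under 0.05, in Kasumi-1 at 72 h. A count of 1 fallen gene among 21 is near or below the shares of all genes that fell. CLN6 (-0.41 and -0.40) and, at 72 h, CLN8 (-0.42), which carry hydrolases out of the endoplasmic reticulum, fell in Kasumi-1. GGA2, an adaptor of the mannose 6-phosphate receptors, fell as well, with -0.27 in Kasumi-1 at 72 h and -0.37 and -0.35 in SKNO-1.

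Of 17 transcription factors and nutrient sensors tested, 3 rose and 1 fell in Kasumi-1 at 24 h. At 72 h 4 rose and 2 fell there. In SKNO-1 1 fell at 24 h, and 1 rose and 1 fell at 72 h. The shares of all tested genes that rose were 9.69% and 13% in Kasumi-1 and 5.64% and 6.91% in SKNO-1. Those that fell were 11.2% and 12.7% in Kasumi-1 and 3.44% and 4.16% in SKNO-1. A count of 1 among 17, and that of 2 fallen, is near or below the matching share. TFEB ranged over 0.112 to 4.34 FPKM and rose by 0.58 and 0.68 in Kasumi-1, and its changes of 0.083 and 0.15 in SKNO-1 did not pass. TFE3 changed by 0.33, 0.51, 0.33 and 0.26, of which the change in Kasumi-1 at 72 h passed. TFEC, a relative of both, rose by 0.59 and 0.74 in Kasumi-1 and by 0.35 in SKNO-1 at 72 h. MITF stayed under 1 FPKM in every library and was not tested. RRAGD, a GTPase of the nutrient-sensing complex on the lysosome, fell in all 4 sets, with log2 changes of -0.46, -0.62, -0.45 and -0.50.

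Of 28 autophagy genes, 2 rose in each set except Kasumi-1 at 72 h, where 7 did. Of all tested genes 9.69% and 13% rose in Kasumi-1 and 5.64% and 6.91% in SKNO-1, and a count of 2 of 28 is near or below those shares. None fell in limma, and 1 in each SKNO-1 set was lower at an unadjusted p under 0.05. WIPI1, a protein of early autophagosomes, rose by 0.75, 0.94, 0.60 and 0.70. OPTN, a cargo receptor, rose by 0.88 in Kasumi-1 at 72 h and by 0.89 and 1.28 in SKNO-1, VMP1 by 0.33 in Kasumi-1 at 24 h and ATG16L2 by 0.54 at 72 h. Of 8 cystatins and other inhibitors of lysosomal proteases, 2 and 3 rose in Kasumi-1 and 1 in each SKNO-1 set, and none fell or was lower at an unadjusted p under 0.05 (limma). These counts are to be read against the shares of all genes given above. SERPINB8, an intracellular serpin, rose by 2.22, 2.304, 1.04 and 1.51. SERPINB1 (0.25 and 0.19) and, at 72 h, CSTB (0.32) rose in Kasumi-1.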

How the data were processed

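The authors deposited FPKM per gene and library, a gene annotation and a sample table. Per the submitters' processing notes, TopHat 1.4.1, Cufflinks and the hg19 genome were used. The annotation, the library's strand and any further scaling are not given in the sources used here.

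Values were taken as log2(FPKM + 1). The filter of 1 FPKM in 2 or more libraries left 11890 of 23073 genes, and 30 genes had missing values in 102 cells. limma 3.58.1 in R 4.3.3 fitted a mean for each of 16 groups with a trended prior (16 residual and 5.23 prior degrees of freedom, median over genes). The fit was checked on data simulated from its own means and spread. That noise was independent between libraries, so the check does not cover libraries that deviate together. Tests were 2-sided with a threshold of 0.05 on p values corrected within each contrast (Benjamini-Hochberg). A fold is on the log2(FPKM + 1) scale and understates changes of low genes. Relative depth, read from the steps of low values in 1 to 14 genes per library, was 0.735 to 1.18 and is a rough guide.

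Named by rule were members that passed in at least 2 sets, in a test of compounds or in an interaction, with LAMP1, CTSD and GRN, TFEB, TFE3, MITF and CTSS whatever their values, and up to 3 passing genes of each other list and set. The members and lists were chosen with earlier results of these data known. Promoters came from RefSeq (GRCh38.p14). Tables and plots were made in Python 3.11.15 (numpy 2.4.6, pandas 2.3.3, matplotlib 3.10.9).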

Additional observations from a re-analysis of the deposited data

Results flagged for a closer look

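The inhibitor change of 3 members differed between the lines by limma's test of that difference, in Kasumi-1 minus SKNO-1 on the log2 scale. CTSO differed by 1.27 at 24 h and 1.68 at 72 h, NPC2 by 0.47 and ASAH1 by 0.46, both at 72 h. CTSO was under 1 FPKM in every SKNO-1 library, and its difference was not called with a pseudocount of 0.1. ASAH1 kept its call whichever single library was left out, and NPC2 did not. The cause was not tested.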

How the results depend on the processing

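Results were refitted with no filter, a pseudocount of 0.1, quantile normalization, median-of-ratios scaling, a replicate block, a fit to the 8 libraries of each set, a term for name prefix in SKNO-1 at 72 h, and leaving out each library. With depth unknown, counting error is not covered.

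Counts of members that rose with the inhibitors were 9 to 12 with 1 library left out in Kasumi-1 at 24 h, 10 to 13 at 72 h, 2 to 10 in SKNO-1 at 24 h and 7 to 10 at 72 h. Counts that fell were 0 to 1, 0, 0 to 2 and 1 to 2. For RN-1 against DMSO they were 2 to 3, 4 to 8, 0 to 7 and 0 to 6 in the same order, and for GSK690 against GSK690* 1 to 2, 2 to 6, 0 to 4 and 1 to 3. Counts for the lines' controls were 23 to 26 at 24 h and 26 to 28 at 72 h, and for the lines' responses 1 to 2 and 2 to 3. PSAP at 72 h, with no called difference between the lines' controls, ranged from -0.043 to 0.058 and was below 0 in 4 of those fits.

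In Kasumi-1 at 24 h, the member that fell was lost with quantile normalization and with median-of-ratios scaling (0 each), and GSK690 against GSK690* called 6 with quantile normalization, 5 with median-of-ratios scaling and 5 in the fit to 8 libraries. In SKNO-1 at 24 h, the fit to 8 libraries called 0 members up with the inhibitors and 0 for RN-1 against DMSO. RN-1 against DMSO called 2 with a pseudocount of 0.1, 3 with quantile normalization and 3 with median-of-ratios scaling, and GSK690 against GSK690* called 1 with a pseudocount of 0.1 and 1 with median-of-ratios scaling. In SKNO-1 at 72 h, the fit to 8 libraries called 4 up and 0 down with the inhibitors and 2 for RN-1 against DMSO, which called 1 without a filter. For the lines' responses at 24 h, 0 were called with a pseudocount of 0.1, 2 without a filter and 2 with median-of-ratios scaling. The causes were not tested.

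The replicate block used a pairing known only from shared numbers, whose libraries deviated together with r of 0.0432 to 0.697. No called change of a member was lost with it, and counts grew: RN-1 against DMSO called 8 in SKNO-1 at 24 h and 9 at 72 h, and GSK690 against GSK690* called 7 in Kasumi-1 at 24 h, 7 in SKNO-1 at 24 h and 8 at 72 h. It called 1 for GSK690* against DMSO in Kasumi-1 at 24 h (CTSO, adjusted p = 0.0168), 1 that differed between times in Kasumi-1, and 5 between the lines' responses at 24 h and 5 at 72 h. Members that fell with the inhibitors numbered 1 in Kasumi-1 at 72 h and 2 in each SKNO-1 set. Of all genes called in Kasumi-1 at 24 h, 46.5% rose, and 58.4% with median-of-ratios scaling; in SKNO-1 at 24 h it was 62.1%, and 75.2% with that scaling and 88.8% in the fit to 8 libraries.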

Other observations

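Among 9 genes of leukaemic blast identity, the stem cell antigen CD34 was higher with the inhibitors in all sets, by 0.73 and 1.41 on the log2 scale in Kasumi-1, and by 1.02 at 24 h and 1.53 at 72 h in SKNO-1. CD33 rose by 0.32, 0.71, 0.34 and 0.42 in the same order of sets. The receptor KIT fell in Kasumi-1, with -0.38 and -0.52, fell by 0.36 in SKNO-1 at 24 h, and changed by -0.28 at 72 h without passing (limma). ANPEP, the surface peptidase CD13, rose by 1.46 in Kasumi-1 at 72 h, and CD38 fell by 0.52 at 24 h.

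Of 14 neutrophil granule genes 5 were tested. CTSG, the granule protease cathepsin G, fell in Kasumi-1, with -0.57 and -0.79, and PRTN3, proteinase 3, fell by 1.28 at 72 h. In SKNO-1 none passed in limma, and at an unadjusted p under 0.05 3 were lower at 72 h and none at 24 h. Among all tested genes 11.2% and 12.7% fell in Kasumi-1 and 3.44% and 4.16% in SKNO-1. Of 10 markers of T, NK and B cells 5 were tested, and 4 rose in Kasumi-1 at 72 h, with NKG7 at 0.98, CD79A at 0.47, CD79B at 0.45 and CD8A at 0.41. In Kasumi-1 at 24 h CD79B rose by 0.38, and in SKNO-1 at 72 h CD8A rose by 0.37. The shares of all tested genes that rose were 9.69% and 13% in Kasumi-1 and 5.64% and 6.91% in SKNO-1. Of 11 erythroid and megakaryocyte markers 2 were tested, and ITGA2B rose by 0.96 in SKNO-1 at 72 h. Of 10 adherent cell markers 9 had a row. EPCAM alone reached 1 FPKM, and 8 stayed under it in every library. The 9 together summed to 61.0 to 83.5 FPKM in Kasumi-1, most of it EPCAM, and to 0.0233 to 0.338 FPKM in SKNO-1.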
